A study of Mus musculus with 6 samples.

Results

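A group of 69 mouse noncoding transcripts gave piRNA-sized reads in the fetal testis and few at 10 days post partum (dpp). They were taken from 12822 GENCODE genes of the types lincRNA, TEC (regions that may be genes and await experimental evidence), antisense and processed_transcript, and from 55450 genes in all. A member had at least 50 sense reads of 24 to 32 nt per 1e6 library reads (RPM) in Dnmt3L WT at 16.5 days post coitum (dpc), and at most 10% of that level in Dnmt3L WT at 10 dpp. Of 100 genes of these types with the fetal minimum, 25 kept more than 10%. The rule left out 6 others by name, of which 5 met both thresholds and 1 kept more than 10%. The members were chosen by their levels in these Dnmt3L WT libraries of both ages, so the fall between them is a description.

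The 6 libraries were small RNA of 18 to 35 nt from whole testis of C57BL/6 mice. Dnmt3L wildtype and Dnmt3L knockout (KO) testes were taken before birth at 16.5 dpc, each a pool of 7 or 8 mice, and after birth at 10 dpp, each a pool of 3 mice. Miwi2 wildtype and Miwi2 knockout testes were taken at 10 dpp, again with 3 mice per pool and with littermates as wild type (WT). The sources used here do not describe the alleles behind each knockout. Small RNA reads do not measure the targeted mRNA, so the labels were not checked against it. Each group was 1 library of 28701563 to 47232494 reads, so no difference has a replicate check and no test was run. In whole testis, fewer cells of a type and less RNA per cell cannot be told apart.

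piRNAs are small RNAs bound by PIWI proteins in germ cells, and in the fetal testis many are cut from transposon-rich RNA. Primary piRNAs tend to begin with U. A PIWI protein that slices a target leaves a secondary piRNA with A at position 10, whose 5′ end overlaps that of the guiding piRNA by 10 nt, the signature of the ping-pong cycle. MIWI2 (PIWIL4) carries piRNAs into the nucleus of fetal germ cells, where DNA methylation of transposons follows. DNMT3L is a cofactor of the DNA methyltransferases that set this methylation, without catalytic activity of its own.

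The reads below are shown because they were among the most counted ones of their sets. Each is a deposited read in DNA letters, 5′ to 3′, with positions 1 and 10 in capitals and its place in an exon of the noncoding transcript on GRCm38. For each of 6 sets of transcripts that shared reads, the read with the most fetal WT counts is given, of the reads up to 30 nt long that were considered for display.
4930470H14Rik (set 2, chr17:4082217-4082241, minus strand): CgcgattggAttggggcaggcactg
AC160336.1 (set 1, chr14:44633249-44633276, minus strand): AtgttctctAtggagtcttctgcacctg
Gm47761 (set 3, chr10:17319919-17319946, minus strand): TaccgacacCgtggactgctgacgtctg
Gm4316 (set 4, chr8:123170935-123170961, plus strand): TaagaacttGgaacctcgctgaaaagg
Gm37158 (set 5, chrY:16694486-16694513, minus strand): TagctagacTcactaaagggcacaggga
4930544I03Rik (set 6, chr12:90841375-90841398, minus strand): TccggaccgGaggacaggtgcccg
The read of 4930470H14Rik was counted 31468 times in Dnmt3L WT and 15447 times in Dnmt3L KO at 16.5 dpc, 35 and 81 times in the WT and KO of Dnmt3L at 10 dpp, and 149 and 1122 times in Miwi2 WT and KO. It had no U at its start and an A at position 10, and its sequence stood in 8 genes. The next 2 most counted reads of this transcript began at the same base and ended 2 or 3 nt further on, with 20231 and 21545 counts in Dnmt3L WT at 16.5 dpc. The read of Gm47761 matched 1 gene only, with 1947 and 2075 counts in the fetal libraries, 0 and 2 in the WT and KO of Dnmt3L at 10 dpp, and 6 and 30 in Miwi2 WT and KO.

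A further group is shown because these reads had the most counts in Miwi2 KO, of reads considered and not shown above, in transcripts among those that rose furthest there, or, for Gm48274, because all reads of the transcript matched a single gene.
Gm37767 (set 5, chr1:162087600-162087626, minus strand): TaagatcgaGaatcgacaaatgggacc
4930544I03Rik (set 6, chr12:90841375-90841401, minus strand): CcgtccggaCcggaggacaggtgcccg
Gm37917 (chr9:98768052-98768077, plus strand): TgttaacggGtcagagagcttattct
Gm37158 (set 5, chrY:16694486-16694514, minus strand): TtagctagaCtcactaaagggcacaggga
Gm48274 (chr10:50424298-50424325, plus strand): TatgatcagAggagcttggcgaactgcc
The read of Gm37767 had 931 and 1142 counts in the fetal WT and KO, 131 and 1078 in the WT and KO of Dnmt3L at 10 dpp, and 184 and 11100 in Miwi2 WT and KO. Its sequence stood in 9 genes. The read of 4930544I03Rik began with C, matched 1 gene only and was rarer, with 170 and 110 fetal counts, 0 and 1 in the postnatal Dnmt3L libraries, and 3 and 37 in Miwi2 WT and KO. It contained the set 6 read above with 3 bases added in front. The second read of Gm37158, which like the first stood in 23 genes, contained the first with a T added in front. It had 1401 and 2801 fetal counts and 104 and 12368 counts in Miwi2 WT and KO, whereas the shorter form had 10327 and 8477 fetal counts and 187 and 6935 in the Miwi2 libraries. The read of Gm48274 had 508 and 495 fetal counts and 0 in each of the 4 libraries of 10 dpp, where a count of 0 allows up to 3 counts.

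A pair of overlapping reads on 4930470H14Rik shows the ping-pong geometry, with the 10 nt that pair in capitals.
Sense read (chr17:4082229-4082258, minus strand): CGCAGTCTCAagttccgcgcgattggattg
Antisense read (chr17:4082249-4082272, plus strand): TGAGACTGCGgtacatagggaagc
The sense read had 2997 and 4625 counts in fetal Dnmt3L WT and KO, 0 and 0 in the WT and KO of Dnmt3L at 10 dpp, and 7 and 20 in Miwi2 WT and KO. The antisense read had 4031 and 9313 fetal counts, then 18 and 223 in the Dnmt3L libraries of 10 dpp, and 42 and 734 in Miwi2 WT and KO. The antisense partner thus had the more counts of the pair in all 6 libraries.

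The members were 33 lincRNA, 31 TEC, 2 antisense and 3 processed_transcript genes on 20 chromosomes, 3 of them on X or Y. Their transcripts were 199 to 93147 nt long with a median of 2167 nt, and 35 had a single exon. Most, 52, overlapped no protein-coding gene, while 11 lay on the strand of one and 7 opposite to one. The median distance to the nearest protein-coding gene was 14.8 kb, with an overlap counted as 0. Gm37767 lies within Dnm3, which encodes dynamin 3, a GTPase of membrane fission, and Gm42900 within Tgfbr3, the betaglycan receptor. Gm42943 lies within Negr1, a neuronal adhesion gene. Only 2 pairs of members stood within 1 Mb of each other, Gm48271 with Gm48274, 128 kb apart on chromosome 10, and Gm37324 with Gm42943, 955 kb apart on chromosome 3. No function is stated here for the members themselves.

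Reads were shared widely among these transcripts. In the median member, 3.38% of fetal WT sense reads matched no other gene, 46 members had under 10% such reads, and 6 had over 50%. At the upper end were Gm48274 with all of its reads and AC140207.2 with 73.8%. Joining members that shared at least 10% of the reads of the smaller one left 27 groups, 11 of them with 2 or more members and 53 members in all. Members of a set are therefore not independent of each other, and a shared read was divided evenly over its genes.

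In summed sense reads, the members had 13947 RPM in Dnmt3L WT and 13028 RPM in Dnmt3L KO at 16.5 dpc. The sums at 10 dpp were 357 RPM in Dnmt3L WT, 398 RPM in Dnmt3L KO, 594 RPM in Miwi2 WT and 3037 RPM in Miwi2 KO. The Miwi2 KO library thus stood above the other libraries of its age and below both fetal ones. The median member went from 130.0 and 133 RPM in the fetal libraries to 2.10 and 1.49 RPM in the WT and KO of Dnmt3L at 10 dpp, and had 4.60 and 10.8 RPM in Miwi2 WT and KO. As a share of all sense reads of this size, the members held 19.4% and 17.9% in fetal WT and KO. The share was 0.821% and 4.23% in the Dnmt3L libraries of 10 dpp and 0.810% and 4.27% in the Miwi2 libraries. In Dnmt3L KO at 10 dpp the share was higher than in its WT while the RPM sum was close to it, since the sense reads of all other transcripts were 42721 RPM in that WT and 8707 RPM in the KO.

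**Figure D1:**
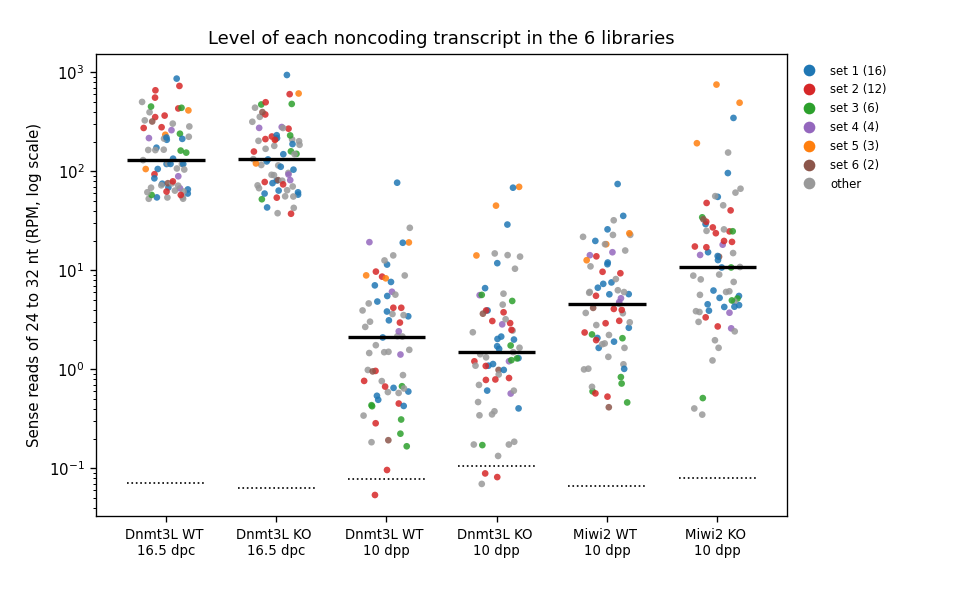
Each point is 1 of the 69 transcripts in 1 library, in sense reads of 24 to 32 nt per 1e6 library reads on a log scale, coloured by the set of transcripts that share reads (number of members in brackets); solid bars are medians and dotted bars the floor of 3 counts. The fetal medians of 130.0 and 133 RPM stand above those of 10 dpp, and 3 members of set 5 and 1 of set 1 stand highest in Miwi2 KO.

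By length, the densest members in fetal WT were Gm43778 with 381 RPM per kb on 199 nt, 4930470H14Rik with 381 RPM per kb, Gm49272 with 336 RPM per kb and AC154172.2 with 320 RPM per kb. The highest total, 866 RPM, belonged to AC160336.1, whose 93147 nt gave it 9.29 RPM per kb, the lowest of all members. Reads were concentrated along the transcripts: the 10 most used start positions held a median of 70.5% of a member's sense reads, and in 39 members the densest 10% of the transcript's length held over 50% of them. In Gm37767, 85.6% of reads lay in the densest 10% of its length.

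Across the fetal minimum, Slc36a1os with 52.9 RPM, Gm44070 with 53.0 RPM and Gm42970 with 54.5 RPM stood just inside, and Gm20186 with 49.6 RPM, Gm49794 with 48.9 RPM and Gm44660 with 48.5 RPM just outside. At the limit of 10%, Gm49701 with 8.92%, Gm37903 with 9.47% and Gm14149 with 9.64% of the fetal level left at 10 dpp were inside. Gm47164 with 10.1%, Gm42519 with 11.1% and Gm47578 with 11.1% were outside. Values ran on across both thresholds without a gap.

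In ratios between libraries, a difference was called where the log2 ratio exceeded 2.02 (4.07-fold), the 95th percentile of absolute log2 ratios between the WT libraries of 10 dpp over 1473 transcripts, and where the compared libraries held at least 500 reads together. In the contrast that chose them, all 69 members were lower at 10 dpp than at 16.5 dpc in Dnmt3L WT, with a median log2 ratio of -6.08, while 37.9% of all compared transcripts were lower and 34.6% higher. The Dnmt3L KO libraries were not used by the rule. There 68 of 69 members fell from 16.5 dpc to 10 dpp, against 79.9% of all 683 transcripts compared. Each member had at least 1764 reads in the fetal KO library, so all passed the read minimum through the library where they are high. The count of 68 is thus a description. The median log2 ratio was -6.86 over the members and -4.28 over all transcripts. The exception was Gm49701, at 189 RPM in the fetal KO and 68.5 RPM in the KO of 10 dpp, a log2 ratio of -1.46. With TMM scaling, which centres the transcripts, 53 members were lower and 3 higher, with a background of 38.8% lower and 28.3% higher and a median over the members of -2.91.

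Miwi2 WT at 10 dpp, set against Dnmt3L KO at 16.5 dpc, gave a comparison that shares its fetal library with the previous one, and in it line, genotype and age cannot be told apart. Of 69 members, 66 were lower and none higher. All passed the read minimum through the fetal library, where they are high, so the count of 66 is a description. Among all 1793 transcripts compared, 21.4% were lower and 45.0% higher. The members' median log2 ratio was -4.82 and that of all transcripts 1.63. Gm43778, Gm14149 and Gm19757 stayed within the limit with log2 ratios of -1.82, -1.64 and -1.59. Counted by reads of a single transcript, 35 of 35 members with enough reads were lower, beside 11.2% of 1165 transcripts lower and 64.6% higher, and these members had enough reads through the fetal library, where they are high. MicroRNAs of the Mir290 and Mir302 clusters, markers of fetal germ and pluripotent cells, summed to 592 and 428 per 1e6 miRNA reads in the fetal libraries and 48.1 to 92.7 in those of 10 dpp. Of 10 such miRNAs in the annotation, 7 and 9 had at least 3 reads in the fetal libraries, and 5 or 6 in those of 10 dpp. Their part in the result was not tested.

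Loss of Dnmt3L left fetal levels within the limit. At 16.5 dpc, none of the 69 members was called higher or lower in the KO, where 0.0867% of all 1154 transcripts were called in each direction. The log2 ratios ran from -0.85 to 0.82 with a median of -0.07, and 31 members had ratios above 0 and 38 below. The lowest was Gm6410, with 166 RPM in WT and 91.7 RPM in KO, a ratio of 0.553 (95% exact conditional binomial interval 0.532 to 0.574). The highest was Gm12480, with 119 RPM in WT and 210 RPM in KO, a ratio of 1.77 (1.71 to 1.83). These intervals, like all others here, cover counting error only, because each group was 1 library. The reads also carry no molecular identifiers. All 12 members of set 2 had ratios below 0 on the log2 scale (-0.81 to -0.10), none past the limit. Since the fetal WT library also chose the members for a high level, a ratio below 1 is in part set by that choice.

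At 10 dpp, loss of Miwi2 went with higher levels of many members. The comparison had 40 members with at least 500 reads, and 18 of them rose and none fell, beside 6.42% of all 1666 transcripts higher and 0.480% lower. A member with few reads in WT could pass the read minimum only through the KO, so the count of 40 favours risers. Of the 18 risers, 8 were in set 2 and 3 in set 5. Members of a set share reads, so the 18 are not independent of each other. Over all 69 members, the log2 ratios ran from -1.31 to 5.36 with a median of 1.25, and 53 were above 0 and 16 below. The median over all transcripts compared was -0.65. Among other genes of the same types, 18 of 162 were higher. Summed sense reads also rose in the sets most like the members. The 16 protein-coding transcripts that met the same thresholds had 146 RPM in Miwi2 WT and 538 RPM in KO. The 25 noncoding transcripts that kept more than 10% had 2981 and 5199 RPM. All other transcripts had 72247 and 65629 RPM. With TMM scaling the median of all transcripts was -0.01, and 28 of the 40 were higher with a background of 11.5%.

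Set 5 rose most. Gm37767 had 235 and 212 RPM in fetal WT and KO, 8.32 and 45.1 RPM in the WT and KO of Dnmt3L at 10 dpp, and 18.4 and 754 RPM in Miwi2 WT and KO. Its level in Miwi2 KO was above that in both fetal libraries. It was 41.0-fold higher in the Miwi2 KO (38.2 to 43.9) and 5.42-fold higher in the Dnmt3L KO of 10 dpp (4.79 to 6.15). The latter ratio is in part set by choosing members low in Dnmt3L WT at 10 dpp. Gm37158, on the Y chromosome, had 414 and 613 fetal RPM, 19.2 and 69.8 RPM in the Dnmt3L libraries of 10 dpp, and 23.7 and 494 RPM in Miwi2 WT and KO, a 20.8-fold rise (19.6 to 22.2). Gm47457, the third of the set, rose from 12.7 to 193 RPM. Each of these transcripts had 0.0184% to 0.118% of its fetal WT reads to itself, so the place of origin cannot be told.

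**Figure D2:**
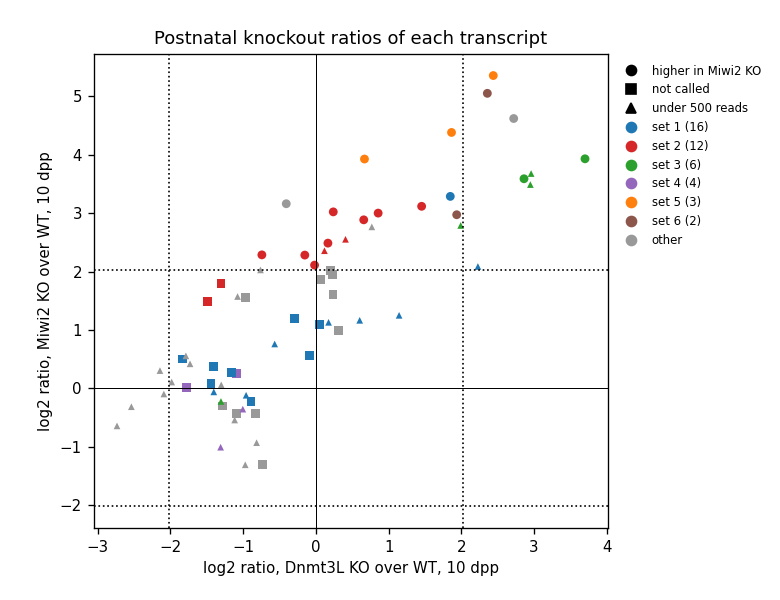
Each point is 1 transcript, with the log2 ratio of KO over WT at 10 dpp for Dnmt3L (x axis) and Miwi2 (y axis); circles rose in Miwi2 KO, squares were compared and not called, triangles had under 500 reads in the Miwi2 libraries, and dotted lines are the limit of 2.02. All 18 circles lie above the upper line, and several points right of the right-hand line had under 500 reads in the Dnmt3L libraries and were not called there.

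Outside set 5, 4930544I03Rik had 76.0 and 81.7 fetal RPM, 0.193 and 0.987 RPM in the WT and KO of Dnmt3L at 10 dpp, and 0.415 and 13.8 RPM in Miwi2 WT and KO, a 33.2-fold rise (20.7 to 54.6). It also had the largest antisense share of all members in fetal WT, 82.9%. Gm37917, of 392 nt, rose from 6.30 to 155 RPM, 24.6-fold (21.8 to 27.8). In fetal WT, 0.708% of its reads matched no other gene and 99.3% were shared only with genes outside the members. Its read shown above stood in 3 genes, among them Noct, so the place of origin cannot be told. Gm49701 rose from 35.6 to 347 RPM and was the 1 riser of 16 in set 1. Among transcripts within a protein-coding gene, Gm38312 in Sh3bp4 rose from 2.81 to 25.1 RPM, 8.94-fold (7.44 to 10.9). At the other end, Gm49272 had 21.8 RPM in Miwi2 WT and 8.86 RPM in KO, a ratio of 0.406 (0.357 to 0.460) that did not pass the limit.

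Single-copy reads gave a smaller basis for the Miwi2 result. Only 8 members had 500 reads that matched no other transcript, of which 3 were called higher beside 1.53% of all transcripts. In such reads Gm38312 went from 0.844 to 14.1 RPM, Gm47761 from 1.27 to 16.8 RPM and AC154172.2 from 1.36 to 23.3 RPM, with log2 ratios of 4.06, 3.73 and 4.10. These were 38, 57 and 61 reads in WT and 524, 625 and 867 in KO, so each reached 500 reads only through the KO, and the count of 3 is a description. These reads matched no other of the 55450 transcripts, and the rest of the genome was not searched here. Gm43305, Gm42653, Gm4316, AC160336.1 and AC140207.2 were not called, with log2 ratios of 0.42, 1.58, -0.03, -0.56 and -0.30.

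Between the knockouts of 10 dpp, set 3 showed higher values in each. Its 6 members summed to 1507 and 1548 RPM in fetal WT and KO. They had 2.24 and 15.01 RPM in Dnmt3L WT and KO at 10 dpp, a ratio of 6.71, and 6.94 and 80.6 RPM in Miwi2 WT and KO, a ratio of 11.6. The Dnmt3L WT library of 10 dpp, with 85.2 sense reads of this set, also chose the members for a low level. Ratios above 1 over that library are in part set by that choice. Gm47761 led with 0.435 and 5.66 RPM in the Dnmt3L libraries (13.0-fold, 7.65 to 22.2) and 2.25 and 34.4 RPM in the Miwi2 libraries (15.2-fold, 12.5 to 18.9). Only Gm47761 and Gm42047 had enough reads in the Miwi2 comparison, where both rose, and no member of the set had 500 reads in the Dnmt3L comparison of 10 dpp. In the same set 1700063D05Rik had 0.600 RPM in Miwi2 WT and 0.513 RPM in KO.

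In Dnmt3L KO against WT at 10 dpp, 11 members had enough reads, and 1 of them, Gm37767, was higher and none lower, beside 1.47% of all 613 transcripts higher and 81.9% lower. The median log2 ratio was 0.23 over these 11 and -0.41 over all 69, while all transcripts compared had a median of -3.002. Of other genes of the same types, 30 of 57 were lower. The WT library of this comparison also chose the members for a low level, so a ratio above 1 is in part set by that choice. TMM scaling moved the median of all transcripts from -3.002 to -0.03, and with it 10 of the 11 members were higher with a background of 13.9%. The libraries differed in make-up too: 12.7% of reads of 24 to 32 nt were 28 to 32 nt long in this WT and 3.40% in its KO, against 35.7% to 39.9% in the other 4 libraries, and the part of this in the result was not tested. Over all 69 members, 30 had log2 ratios above 0 in both knockouts of 10 dpp, 23 in Miwi2 KO only, 16 in neither and 0 in Dnmt3L KO only. Of the 69, 58 had under 500 reads in the Dnmt3L comparison, and members of a set share reads. No such counts are given over all transcripts, so these are a description.

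Some markers of other cells moved between the Miwi2 libraries as well, in both directions. The Sertoli cell miRNA Mir202 had 471 per 1e6 miRNA reads in Miwi2 WT and 795 in KO, and the endothelial Mir126a 1137 and 1848. The peritubular and fibroblast miRNAs were close, with sums of 44152.4 in Miwi2 WT and 45360.5 in KO. The epithelial ones went from 409 to 341, the erythroid ones from 41.8 to 54.6, and the haematopoietic ones from 153 to 194. The fetal germ and pluripotent miRNAs summed to 92.7 in Miwi2 WT and 70.2 in KO. The 5 Mir34 and Mir449 genes, listed as markers of meiotic germ cells, summed to 692 in Miwi2 WT and 311 in KO, and to 105 and 472 in the Dnmt3L WT and KO of 10 dpp. They were higher still in the fetal libraries, at 798 and 753, an age before meiosis begins in the male. The part of these markers in the rises above was not tested.

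The sets differed in strand. Reads of set 2 in Miwi2 WT had 45.5 RPM sense and 54.0 RPM antisense, with reads divided over both strands, and in Miwi2 KO 243 RPM sense and 982 RPM antisense. The same set had 18.9 and 15.4 RPM sense and 18.1 and 156 RPM antisense in Dnmt3L WT and KO at 10 dpp. Its sense level was thus near that of WT in Dnmt3L KO while its antisense level stood above it. Set 3 ran the other way, with 6.60 and 80.4 RPM sense but 2.96 and 3.05 RPM antisense in Miwi2 WT and KO. Set 5 had 34.4 and 773 RPM sense and 21.3 and 63.2 RPM antisense there. Set 4, made of Gm10524, Gm42031, Gm4316 and Gm43305, had 37.9 and 37.7 RPM sense and 3.80 and 2.73 RPM antisense, close in WT and KO. No limit was set for antisense reads, so these are values without a call.

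**Figure D3:**
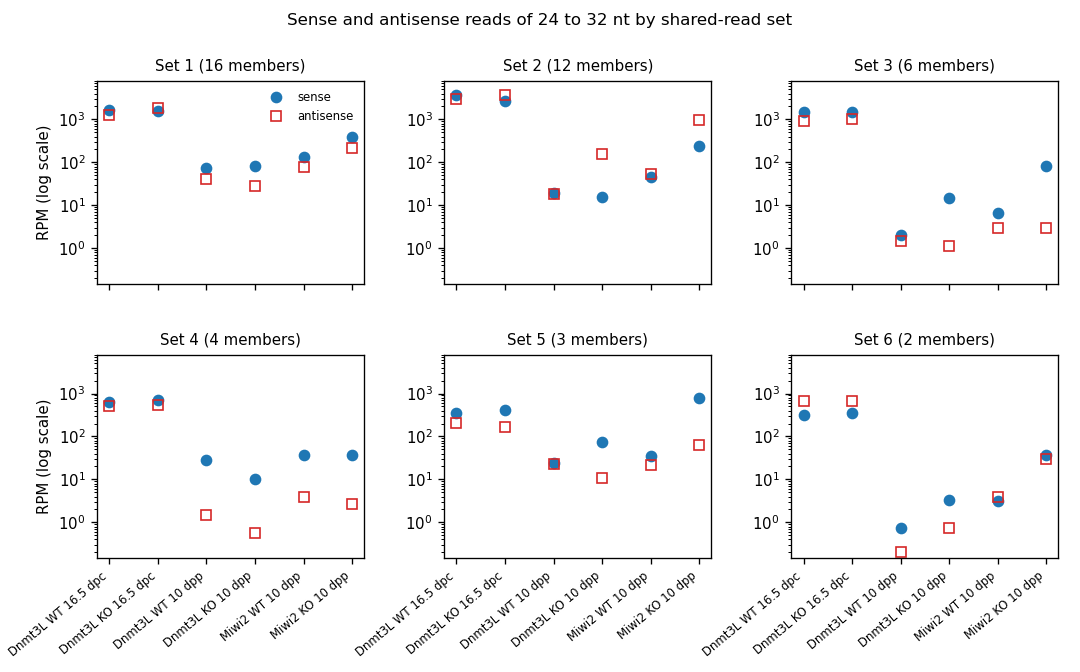
Sense (filled circles) and antisense (open squares) reads of 24 to 32 nt in RPM on a log scale for the 6 largest sets of transcripts that share reads, in each library. Antisense reads of set 2 reach 982 RPM in Miwi2 KO, above the 243 RPM of sense reads, while set 3 has 80.4 RPM sense and 3.05 RPM antisense there.

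Over all members, 49.2% and 51.4% of reads were antisense in the postnatal Dnmt3L WT and KO, and 47.3% and 45.8% in Miwi2 WT and KO, against 43.5% and 49.5% in the fetal libraries. All other transcripts had 39.3% and 39.2% in the fetal libraries but 13.5% to 22.8% at 10 dpp. High shares at 10 dpp were not particular to the members. The 16 protein-coding transcripts that met the same thresholds had 44.6% to 63.7% there. The noncoding transcripts that kept more than 10% had 24.7% to 48.1%. The pooled shares of the members hide differences between sets. In Miwi2 KO, set 2 had 80.2% antisense, set 3 3.65%, set 4 6.75% and set 5 7.56%, where fetal WT had 43.8%, 38.3%, 45.6% and 36.5%. In Dnmt3L KO at 10 dpp, set 2 had 91.03% and set 4 5.46%. In fetal WT, 19 members had more antisense than sense reads, led by 4930544I03Rik, Gm12480 with 77.9% and Gm26809 with 75.0%. Gm37767 had 5.51%.

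Bases at positions 1 and 10 had other shares in the members than in other transcripts. Sense reads in fetal WT began with U in 53.3% (95% Clopper-Pearson interval 53.2% to 53.5%) and had A at position 10 in 52.6% (52.5% to 52.7%). All other transcripts had 70.5% and 35.7%. The noncoding transcripts that kept more than 10% had 64.9% and 40.2%, and the 16 protein-coding transcripts that met the same thresholds 69.8% and 35.2%. Among member reads without U at the start, 75.1% had A at position 10. With reads of a single transcript only, the members had U first in 69.1% and A at position 10 in 39.1%, nearer to the other transcripts.

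Set 2 carried most of this. Its 12 members, pooled, had U first in 20.8% and A at position 10 in 87.6% of fetal WT reads, and in 11 of the 12 the A share was above the U share. That held for 21 members of 69 in all, 5 of 16 in set 1 and none in sets 3 to 6. Gm49238 had 93.3% A and 1.87% U, and Gm42863, at 730 RPM the highest of the set, had 89.0% A and 24.8% U. AC140207.2, alone in its set, had the opposite make-up, with 92.1% U and 8.72% A. At 10 dpp, set 2 had 45.3% A in Miwi2 WT and 71.3% in Miwi2 KO, and 34.5% and 62.5% in Dnmt3L WT and KO.

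**Figure D4:**
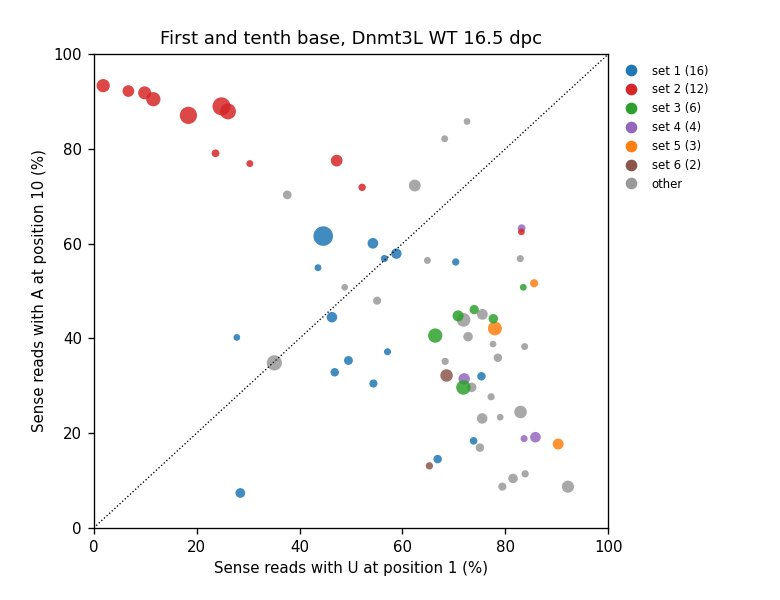
Each point is 1 transcript, placed by its share of sense reads with U at position 1 (x axis) and A at position 10 (y axis) in Dnmt3L WT at 16.5 dpc, with area growing with its RPM and the dotted line marking equal shares. Of the 12 red points of set 2, 11 lie above the line, while sets 3 to 6 lie below it.

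Sense and antisense reads on the members were paired by the overlap of their 5′ ends, from 1 to 20 nt, and the pairs with 10 nt were expressed as a share of all pairs. The share was 43.9% in fetal WT and 43.4% in fetal KO, with 3.93% at 9 nt and 8.47% at 11 nt in fetal WT, and all other transcripts had 23.5% and 22.3%. It was 28% and 27.8%, beside 43.0% and 23.6% in all other transcripts, in Dnmt3L WT and KO at 10 dpp. Miwi2 WT had 20.8% and Miwi2 KO 40.9%, while all other transcripts had 34.5% and 33.1%. In 40 of 69 members 10 nt was the most frequent overlap in fetal WT. The pooled share follows abundant reads: it was 13.1% in fetal WT with reads of a single transcript and 8.08% with each sequence counted once. Set 2 had 58.8% in fetal WT, 28.5% in Miwi2 WT and 62.2% in Miwi2 KO, and set 3 had 19.5%, 5.90% and 22.8%. Gm49238, of set 2, had 0.107% despite its A share.

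**Figure D5:**
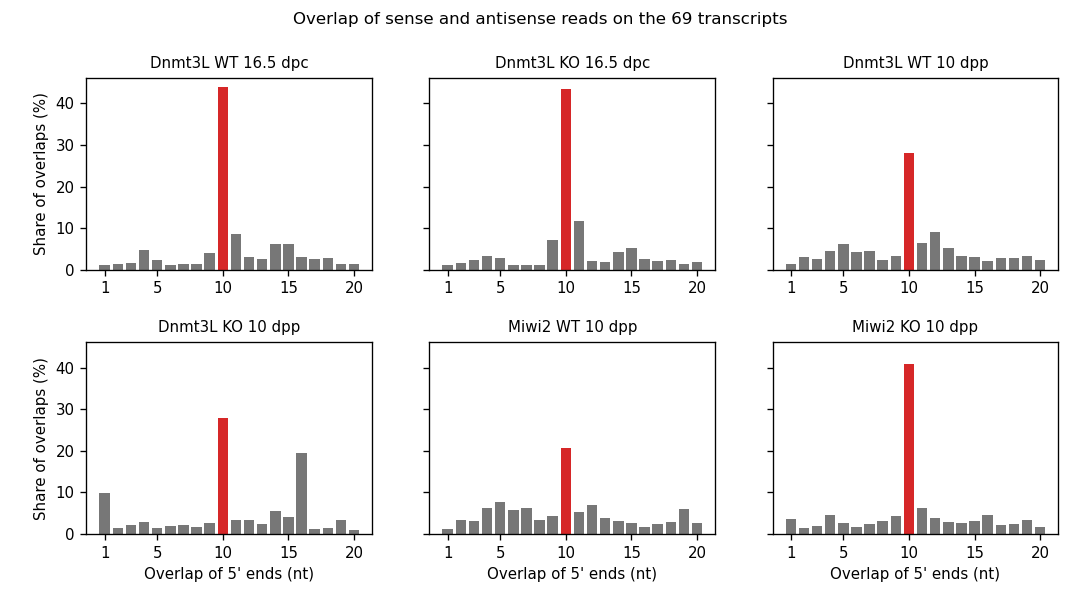
Share of overlaps of 1 to 20 nt between 5′ ends of sense and antisense reads on the 69 transcripts (y axis, percent) by overlap length (x axis, nt) in each library, with 10 nt in red. The 10 nt bar is the highest in every library, at 43.9% in fetal WT, 20.8% in Miwi2 WT and 40.9% in Miwi2 KO.

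The most frequent length in fetal WT was 28 nt in 34 members and 27 nt in 19, and 57 had a mode of 26 to 28 nt, with modes from 24 to 30 nt in all. Reads of 28 to 32 nt made up 65.3% in set 5 and 59.6% in set 1, but 30.9% in set 6 and 29.5% in set 7. Pooled over members, 52.1% of reads of 24 to 32 nt were 28 to 32 nt long in fetal WT and 55.6% in fetal KO, and 47.2% and 49.98% in all other transcripts. The noncoding transcripts that kept more than 10% were near the members, with 52.5% and 54.4%. The protein-coding transcripts that met the same thresholds had 46.9% and 43.5%. In Miwi2 WT and KO the members had 47.8% and 56.9%. Short reads of 18 to 23 nt made up 6.10% and 6.90% of the members' reads of 18 to 32 nt in the fetal libraries, and 9.61% to 19.7% at 10 dpp.

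Most member sequences of 10 dpp were also seen in a fetal library, a share partly set by choosing members with many fetal reads. No such share is given here for other transcripts, so the values are a description. In Miwi2 KO, 96.9% of the members' sense reads and 77.3% of their 13756 distinct sequences were also present in a fetal library. In Miwi2 WT these shares were 94.6% of reads and 84.5% of 7433 sequences. The Dnmt3L libraries of 10 dpp had 92.8% of reads in WT and 95.8% in KO. Distinct sequences numbered 39585 in fetal WT and 48246 in fetal KO. At the floor of 3 counts, 0.0635 to 0.105 RPM by library, 1 member in Dnmt3L WT and 3 members in Dnmt3L KO at 10 dpp could not be told from 0.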

How the data were processed

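Small RNA of whole mouse testis was sequenced in 6 libraries, 1 pool of animals per group. The deposited files hold 1 row per distinct read sequence with its raw count, and no header. Only the build mm9 is named, per the submitters' processing notes; how reads were trimmed, aligned or filtered is not given in the sources used here. Libraries held 28701563 to 47232494 reads, so the floor of 3 counts is 0.0635 to 0.105 RPM. Exact matches of reads of 18 to 32 nt were sought in both orientations in the longest GENCODE vM21 (GRCm38) transcript of each of 55450 genes with Python 3.11.15, numpy 2.4.6 and numba 0.67.0. Reads of miRNA genes, of other small RNA and of 10 or more genes other than pseudogenes (repeat-like) were set aside, which lowers the level of repeated sequence. Shared reads were divided evenly over their genes. No genome or repeat annotation was used here, so transposon families are not named.

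Levels are RPM of all library reads. All other transcripts, where set beside the members, leave out the 7 genes that the rule leaves out. With 1 library per group, log2 ratios carry 95% exact conditional binomial intervals and shares 95% Clopper-Pearson intervals (scipy 1.17.1), for counting error only. A change was called past the 95th percentile of absolute log2 ratios between the WT libraries of 10 dpp, at 500 reads or more. Matching and calling were tested on simulated data. The members, lists and alternatives were chosen with earlier results of these data known. Named are the 15 highest members, the 3 highest and lowest ratios of each comparison, the 5 with the largest shares of unshared and of antisense reads, and the 3 nearest to each threshold; Gm38312, Gm42653, Gm47457, Gm10524, Gm42031 and 1700063D05Rik, outside this rule, were chosen after their values were seen. The 8 alternatives were miRNA and TMM scaling, 25 to 30 and 24 to 28 nt, reads of 1 transcript only, distinct sequences, repeat-like reads kept, and a minimum of 100 reads.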

Additional observations from a re-analysis of the deposited data

How the results depend on the processing

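No paired analysis was possible because each group was 1 library. All values of the report rest on single pools, on exact matches to transcripts and on reads mostly shared between genes; low counts at 10 dpp limit the Dnmt3L comparison to 11 members. No member was called in fetal Dnmt3L KO against WT under any of the 8 alternatives, and no member was called lower in Miwi2 KO. For the changes below, the cause was not tested, except that fewer members had enough reads with reads of 1 transcript or distinct sequences.

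The number of members by the thresholds was 186 with miRNA scaling, 44 with 24 to 28 nt, 18 with reads of 1 transcript only and 9 with distinct sequences. In Miwi2 KO against WT, 28 of 40 members tested were higher with TMM scaling (median log2 ratio 2.54, 11.5% of all transcripts higher), 3 of 8 with reads of 1 transcript (median 0.997, 1.53%) and 1 of 2 with distinct sequences (median 1.22, 4.7%), and the median with 24 to 28 nt was 2.09. In Dnmt3L KO against WT at 10 dpp, 10 of 11 were higher with TMM scaling (median 3.20, 13.9% of all transcripts higher), 2 of 11 with 25 to 30 nt (2.32%), 3 of 11, and 1 lower, with 24 to 28 nt (3.1% higher, 85.9% lower), and 4 of 40, and 2 lower, with a minimum of 100 reads (median -0.74, 0.402% higher, 68.9% lower). None was higher with miRNA scaling (0 members, median -0.0065), reads of 1 transcript (0, median -1.81) or distinct sequences (0, median -0.060), and the median with repeat-like reads kept was -0.14. At 16.5 dpc the median KO ratio was 0.12 with miRNA scaling and 0.046 with reads of 1 transcript.

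Between ages, members lower with reads of 1 transcript numbered 35 of 35 tested in Dnmt3L KO (69.2% of all transcripts), 35 of 35 in Miwi2 WT against fetal Dnmt3L KO (11.2%) and 36 of 36 in Dnmt3L WT (22.1%). With distinct sequences they numbered 18 of 23 (34.9%), 26 of 26 (18.9%) and 16 of 20 (14.6%). Each of these comparisons holds a fetal library, where the members are high, so the counts are descriptions. In Dnmt3L KO, TMM scaling made 3 members higher and turned the direction of Gm14149 (1.18), Gm19757 (0.78), Gm37158 (0.82), Gm37767 (1.72), Gm37903 (0.20) and Gm37917 (1.78). Distinct sequences turned that of Gm37158 (0.82) and Gm37903 (0.0097).

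In fetal WT, U at position 1 was 53.5% at 25 to 30 nt, 51.8% at 24 to 28 nt, 69.1% with reads of 1 transcript, 50.4% with distinct sequences and 53.8% with repeat-like reads kept. A at position 10 was 50.001%, 39.1%, 37.2% and 53.1% in the last 4 of these. The antisense share was 43.1%, 43.2%, 41.4%, 46.4% and 44.4%, and the 10 nt overlap share 41.9%, 47.8%, 13.1%, 8.08% and 44.8% in the same order. Reads of 1 transcript only made up 20.9%, 20.4%, 34.6% and 18.8% at 25 to 30 nt, at 24 to 28 nt, with distinct sequences and with repeat-like reads kept.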
